A study of Homo sapiens with 2 samples.

Results

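The RNA-binding protein RBMS3 was mapped on the transcripts of 42 genes. They encode cyclins, cyclin-dependent kinases (CDKs), CDK inhibitors, the CDC25 phosphatases, RB1 and the E2F factors. Many belong to the cell cycle engine, and some of the cyclins and CDKs act in transcription and splicing. The genes were chosen by name, with earlier results of these data known. A site was counted for a gene when it lay inside that gene on the same strand in GENCODE release 44. By this rule 31 of the 42 genes had a site, and together they held 184 of the 27706 sites of the whole list. The cells belonged to MDA-MB-231, a triple-negative human breast cancer line in wide use. They carried, through a lentivirus, RBMS3 with an N-terminal FLAG tag under the EF1a promoter, so the protein recovered was the tagged one, not the cell's own RBMS3. There was 1 group with 2 biological replicates, no untreated or untagged group was analysed here, and the source and cell line labels of replicate 2 name the line MDA-MB-232 although its title gives MDA-MB-231. The cells were irradiated with ultraviolet light at 254 nm and 400 mJ/cm2, the protein was pulled down with an anti-FLAG antibody, and the RNA crosslinked to it was sequenced (CLIP-seq).

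Many cyclins of the cell cycle rise and fall in its course, and a cyclin switches on its CDK partner while it is present. D-type cyclins with CDK4 and CDK6 and then E-type cyclins with CDK2 phosphorylate RB1, which frees E2F factors to transcribe the genes of DNA replication. Cyclins A and B with CDK1 then carry the cell into mitosis, CDC25 phosphatases remove the phosphates that hold CDKs inactive, and the CDK inhibitors block the kinases. Many of these messages are short-lived, and their 3′UTRs, the stretch between the stop codon and the poly(A) tail, are where proteins that set message stability often bind. The hexamer AATAAA, or its common variant ATTAAA, is the poly(A) signal that places the cut at which the tail is added.

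Each site in the list is a single deleted base, which the method reads as the point where reverse transcriptase skipped the remnant of a crosslinked protein, although a deletion can also have another origin. For every site the list gives how many tags covered it and how many of these carried the deletion, where a tag is a unique RNA fragment and the authors pooled the tags of both replicates. Because of the pooling the spread between replicates is unknown for every value, and a site could rest on 1 replicate. Intervals are 95% Wilson intervals of the tag or site counts and cover counting error only. A higher number of tags can come from a more abundant message or from more binding per message, and these cannot be told apart here.

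Most of the heaviest sites lay close to transcript ends or at poly(A) signals, and the 30 nt around the leading deletion of several of them are printed to show the sequence that the protein met. All are hg38, written 5′ to 3′ on the strand of the gene, with U as T. Capitals mark the run of identical bases in which the deletion was called, since a deletion within such a run cannot be assigned to 1 of its bases. The first set holds the leading sites of CDK1 and its cyclins A2 and B1, with both the end of the transcript and the more upstream cluster where there were 2.
CDK1, end of the transcript (chr10:60794810-60794839, plus strand): actaaaattactagcTTTgggaattaaact
CDK1, upstream cluster (chr10:60794201-60794230, plus strand): aataaaactataataTTgatgtcaggaatc
CCNA2, end of the transcript (chr4:121816439-121816468, minus strand): aataaaccagaaaTTTgttaccttattttc
CCNA2, upstream cluster (chr4:121817365-121817394, minus strand): gataataaattgaTTTggaaaactttgcaa
CCNB1, upstream cluster (chr5:69177711-69177740, plus strand): tacttttaataaagcTTgtggcccctttta
CCNB1, end of the transcript (chr5:69178198-69178227, plus strand): cattttggttttgtgTTTTggttaataaaa

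The second set holds leading sites of the other heavily covered members and of members bound at a signal away from the canonical end. CDK4, the leading site of CCND1 and the first E2F3 site are shown because no poly(A) signal lay within 25 nt of their deletion.
CCNI, upstream cluster (chr4:77048059-77048088, minus strand): aataaaactctcattaTTTgtgtggctaat
CCNI, end of the transcript (chr4:77047149-77047178, minus strand): gtagcaataaaaagTTgtccttaacttttg
CCND1, end of the transcript (chr11:69654399-69654428, plus strand): catgtaaccggcatgTTTccagcagaagac
CDK4 (chr12:57748255-57748284, minus strand): tttggggtccTTTTTTatacaggaaaaaca
CCNH (chr5:87394286-87394315, minus strand): ctttcacagtaacTTTatgtaaaataaacc
CDKN1A (chr6:36687294-36687323, plus strand): atacagcaggtgctcAAtaaatgattctta
CDKN1B (chr12:12722328-12722357, plus strand): tgttacacattaagtAAtcaataaagaaaa
CDKN2C (chr1:50974588-50974617, plus strand): ggtttgtcctgatgcTTTTgtctaattaaa
E2F1 (chr20:33675690-33675719, minus strand): ctcctgctttggTTTTaataaatattttga
E2F3, upstream cluster (chr6:20493498-20493527, plus strand): actaatcagtttagcTTTgtgttgtatgct
E2F3, end of the transcript (chr6:20493685-20493714, plus strand): ggatcaataaaatgaTTTTTTTTaagagtt

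The question was how far RBMS3 occupies the messages of these cyclins, CDKs and their regulators, and where. RBMS3 had at least 1 site in 31 of the 42 genes, beside 37.6% of all 20046 protein-coding genes of the annotation. It had a 3′UTR site in 30 of them, beside 31.8% of protein-coding genes, and the same 30 had a 3′UTR site with the deletion in under 30% of the tags, beside 27.6%. The 31 genes are 73.8% of the 42. These shares are descriptions without a test: whether a gene is listed also turns on how abundant its message is, and no expression level was analysed here. The 42 genes were chosen with earlier results of these data known, so their share is not that of an independent list. Among 16 further cyclins and CDKs, 5 had a site and 3 a 3′UTR site. Among all 55 other cell cycle genes, which include these 16, the counts were 35 and 30. The mitotic kinase CDK1, the orphan cyclin CCNI, the S-phase and mitotic cyclins CCNA2 and CCNB1 and the G1 cyclin CCND1 were the members with the most deletions. These 5 held 13703 of the 23928 deletions of all members, or 57.3%.

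The 11 genes without a site were CCND2, CCNE1, CCNF, CCNL1, CCNT2, CDK9, CDK5, CDK14, CDC25A, CDC25B and CDC25C. All 3 CDC25 phosphatases were thus absent from the list, whereas all 4 cell cycle CDKs, all 4 genes of CDK inhibitors and CDKN3, and all 3 of RB1 and E2F were present. Absence reads as no listed site at this depth: sites with the deletion in under 30% of the tags had at least 110 tags anywhere in the list, so a sparsely covered message could not have carried one. The canonical 3′UTR had a median length of 1302 nt in the 30 members with a 3′UTR site and 1527 nt in the 12 without.

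A bound member had a median of 4 sites, where a bound protein-coding gene had a median of 2. The deletions summed over a member's sites had a median of 533, against 114 in the 7542 bound genes, and its best covered site had a median of 6457 tags, against 2562. Members were thus among the better covered genes of the list, and their count of sites moved with coverage. Over the 31 bound members, Spearman's rho was 0.690 between the tags at the best covered site and the number of sites, and 0.0702 between the length of the canonical 3′UTR and the number of sites. Both are descriptions across genes that share the same libraries. The tags at the best covered site are a maximum over the counted sites, so part of the first rho can follow from how it was computed.

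**Figure D1:**
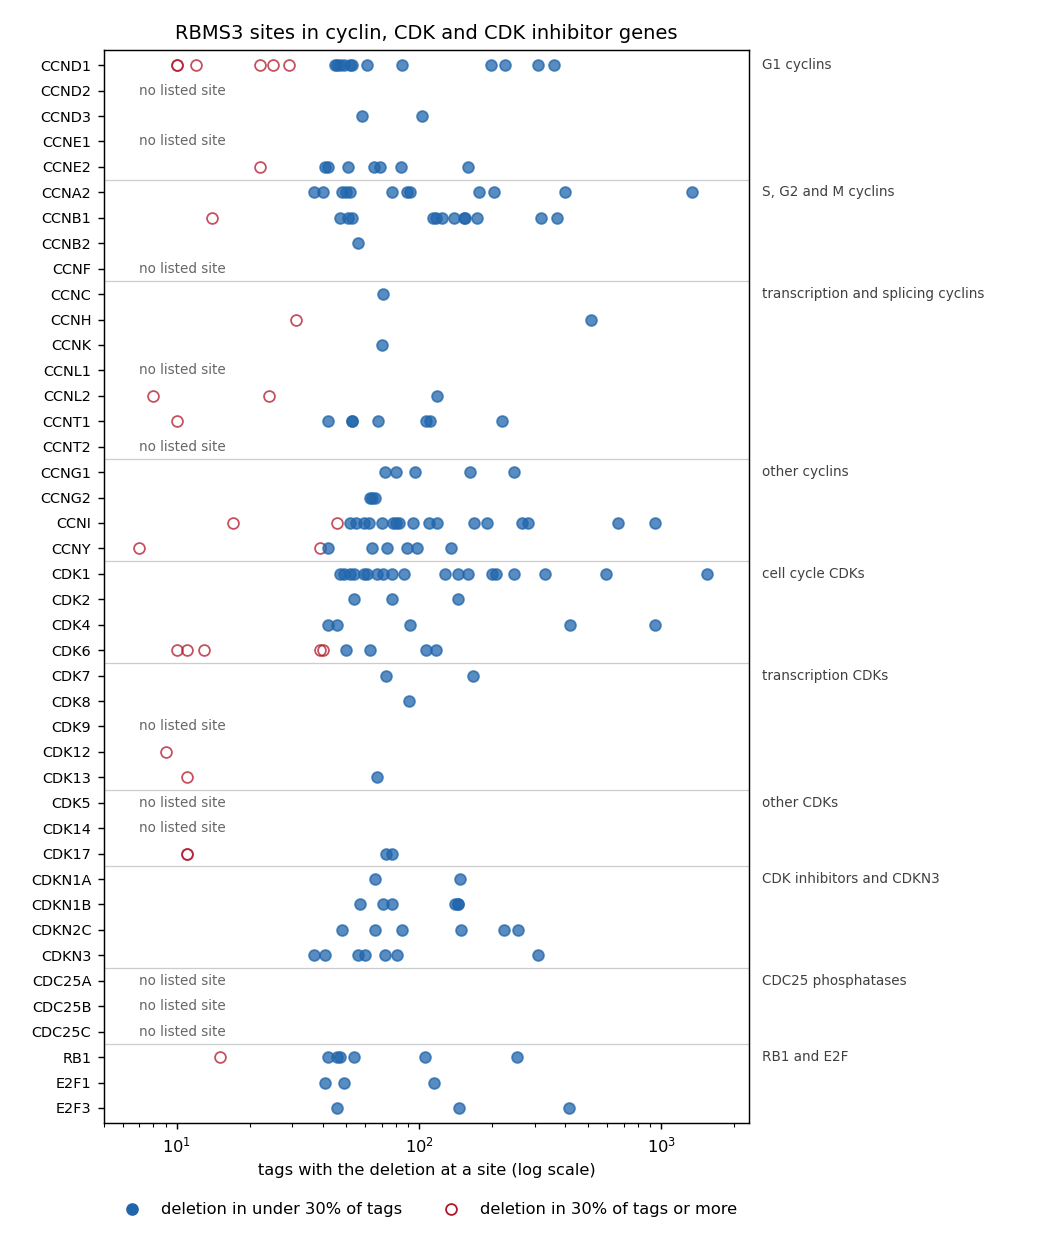
Every listed site of the 42 genes, with the number of tags that carry the deletion on a log axis and the genes in rows by role; filled blue points are sites with the deletion in under 30% of their tags, open red points the others. The rows of CDK1, CCNI, CCNA2, CCNB1 and CCND1 hold the most sites, the largest count is 1553 in CDK1, and 11 rows are empty.

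Of the 184 sites, 173 lay in 3′UTRs (94.0%, interval 89.6 to 96.6), beside 76.6% of the whole list, which also counts intergenic sites that no gene could hold. Introns held 7, coding sequence 3 and a noncoding exon 1, and no site lay in a 5′UTR, which allows a share of up to 2.05%. All 11 sites outside 3′UTRs belonged to the class with the deletion in 30% or more of few tags, as did 85.5% of such sites in the whole list. CDK12, which phosphorylates RNA polymerase II, was the only bound member without a 3′UTR site: its single site lay in coding sequence, and all 9 tags there carried the deletion.

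The percentages fell into a low class and a high class. In 158 sites the deletion was in under 30% of the tags (85.9%, against 70.1% of the whole list), with a median of 10141 tags and a median percentage of 1.19%. The whole list holds more sites outside 3′UTRs, and among 3′UTR sites alone the shares were closer, 91.3% against 87.1%. In the other 26 member sites the deletion was in 30% or more of the tags, with a median of 19.5 tags and at most 119. At 15 of these 26 every tag carried it. A position where every tag lacks the base can also differ between this cell line and the reference genome, which was not tested. Just below the boundary lay a CCNY site with 42 of 147 tags (28.6%) and just above it a CCNI site with 46 of 119 tags (38.7%). The high class gave CCND1 6 of its 18 sites and CDK6 5 of its 9, whereas all 19 sites of CDK1, all 12 of CCNA2 and all 21 of the CDK inhibitors and CDKN3 were in the low class.

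**Figure D2:**
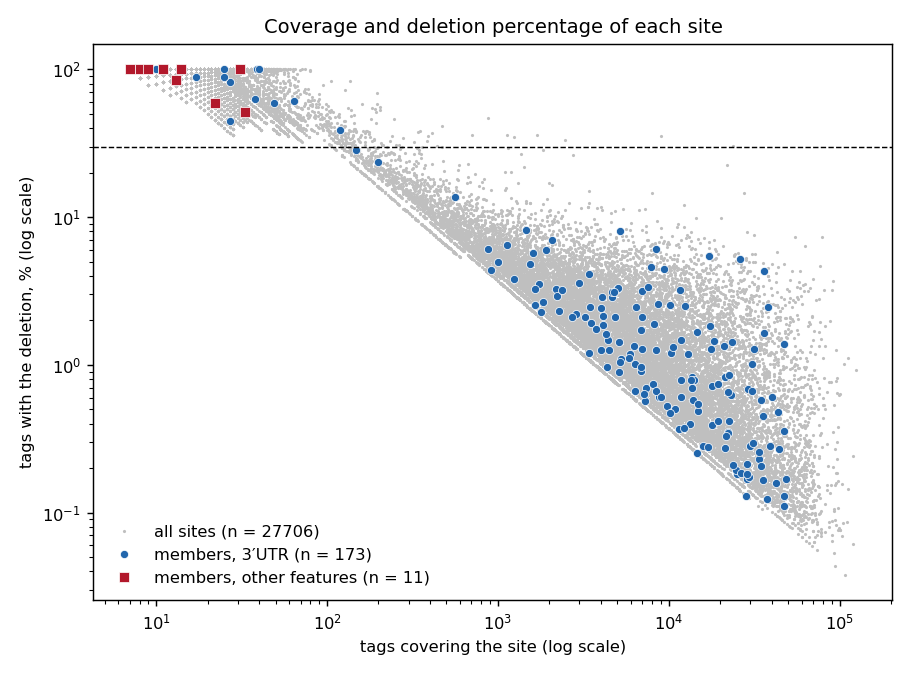
Tags covering a site and the percentage of them with the deletion, both on log axes, for all 27706 sites (grey), the 173 member sites in 3′UTRs (blue) and the 11 member sites elsewhere (red squares). The dashed line is at 30%; all 11 red squares lie above it, and 158 of the blue points below it.

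Distances to an end are counted downstream, from the site to the next annotated end of a transcript with a 3′UTR, and an end that lies upstream of a site is mentioned where it is near. CDK1, the kinase that drives mitosis, had 19 sites, all in its 3′UTR, with 4187 deletions, the 45th highest sum among the bound genes. Its leading site had 1553 deletions in 36176 tags (4.29%, interval 4.09 to 4.51), 7 nt before the variant signal ATTAAA and 3 nt before the end of a shorter annotated transcript. That site led a group of 10 sites at the end of the transcript, in which the percentage ran from 0.124% to 4.29%, a 34.6-fold range, at 17935 to 43679 tags. A second site of that group had 592 deletions in 35907 tags (1.65%) and lay 9 nt after the start of the signal, so the deletions flanked the signal. The other large group held 8 sites, 608 to 638 nt before the nearest annotated end, around an AATAAA. Its tags were nearly as many as at the end, up to 35832, but its deletions were fewer, and its leading site had 200 deletions in 34842 tags (0.574%).

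CCNA2, cyclin A2, the partner of CDK2 in S phase and of CDK1 later, had 12 sites and 2610 deletions. The leading site had 1343 deletions in 26000 tags (5.17%, interval 4.90 to 5.44), 9 nt from the only annotated end and 15 nt after the start of an AATAAA. The base next to its run had 48 deletions in 24723 tags (0.194%), so the deletions were concentrated in a run of 3 T and not on its neighbour. A pair of sites 935 and 940 nt before the end lay after another AATAAA, with 89 of 6946 tags (1.28%) and 52 of 7409 tags (0.702%). At a site 103 nt from the end and without a signal, 77 of 562 tags (13.7%) carried the deletion.

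CCNB1, the mitotic cyclin B1, had 13 sites and 1830 deletions, and RBMS3 was found at each of 3 AATAAA hexamers of its 3′UTR. The first and second stand 580 and 527 nt before the end of the canonical transcript. Around them lay 7 sites, of which the leading site had 370 deletions in 11566 tags (3.20%, interval 2.89 to 3.54). A shorter annotated transcript ends 32 nt after the second of these 7 sites, so that 2 of the 7 lay shortly before that end, and 5 lay 9 to 42 nt past it and 503 to 536 nt before the canonical end. The last signal stands 24 nt before the end, with 4 sites and up to 155 deletions in 8180 tags (1.89%, interval 1.62 to 2.21). CCNB2, the other B-type cyclin here, had 1 site with 56 deletions in 4481 tags (1.25%), 12 nt from its end, at a position that also lies in an intron of another gene on the same strand. CCNF, cyclin F, which acts as part of a ubiquitin ligase, had none.

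**Figure D3:**
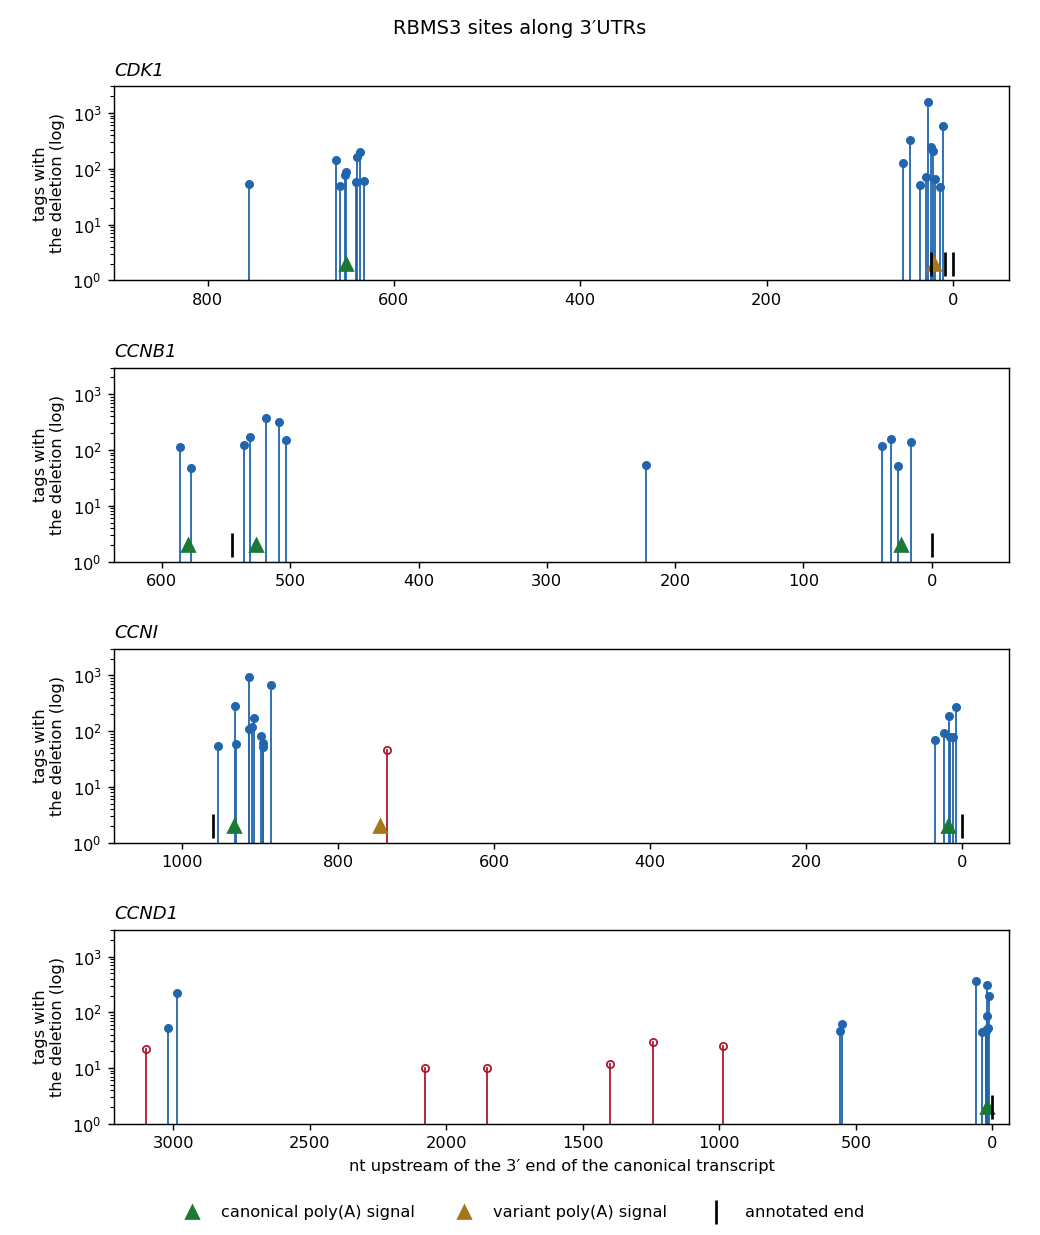
Sites along the 3′UTRs of CDK1, CCNB1, CCNI and CCND1, with the distance upstream of the end of the canonical transcript in nt and the tags with the deletion on a log axis; triangles are poly(A) signals and short black bars annotated transcript ends. In CDK1, CCNB1 and CCNI tall groups stand at a signal far upstream as well as at the end, and in CCND1 the open red points are sites with the deletion in 30% or more of few tags.

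Among the G1 cyclins, CCND1 had the most sites. It encodes cyclin D1, the D-type cyclin amplified in many breast cancers. Its 18 sites fell into 9 clusters and held 1639 deletions. At its end lay 8 sites, led by 360 deletions in 7885 tags (4.57%, interval 4.13 to 5.05) in a run of 3 T, 60 nt from the end and more than 25 nt from the AATAAA. Near the signal itself the percentages were lower although the tags were more. There, 309 of 30534 tags (1.01%) had the deletion in a run of 3 A that reaches into the first bases of the hexamer. A cluster near the start of the 3′UTR, 2986 nt before the end, had 226 deletions in 17588 tags (1.28%), with no signal. CCND3 had 2 sites, with 103 of 4859 tags (2.12%) and 58 of 5285 tags (1.10%), and CCND2 had none.

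CCNE2, cyclin E2, had 7 sites 17 to 77 nt from an annotated end, with the leading one at 159 deletions in 6457 tags (2.46%, interval 2.11 to 2.87), and a further site of the high class. Its paralog CCNE1 had none. Paralogs with and without sites thus stood side by side in the D-type and E-type cyclins, and also in the T-type (CCNT1, not CCNT2) and L-type cyclins (CCNL2, not CCNL1). Canonical ends of CCND2, CCNE1, CCNL1 and CCNT2 have a poly(A) signal in their last 50 nt. No expression level was analysed here, and why these paralogs differ in listed sites was not tested.

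CDK4, partner of the D-type cyclins, was bound away from its end: all 5 sites lay 525 to 571 nt before the next annotated end and 128 to 174 nt past another one, and none had a poly(A) signal within 25 nt. The leading site had 947 deletions in 17241 tags (5.49%, interval 5.16 to 5.84) in a run of 6 T, and another had 421 in 9409 tags (4.47%, interval 4.07 to 4.91). A stretch of 10 nt with at least 8 A began 7 nt downstream of the leading deletion. Oligo(dT) was used to capture and prime the RNA after a poly(A) tail had been added to it, so A-rich stretches and natural tails could be primed too, and the part of this in the result was not tested.

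CDK6, which shares the D-type cyclins with CDK4, has a canonical 3′UTR of 10222 nt. Its 4 low-class sites lay 112 to 181 nt from the annotated end, led by 117 of 4053 tags (2.89%) near an AATAAA, and its other 5 sites were of the high class, with at most 64 tags. CDK2 had 3 sites 11 to 52 nt from its end, led by 145 of 4670 tags (3.10%) before an ATTAAA. Among the 4 cell cycle CDKs most deletions thus lay in CDK1 and CDK4, with sums of 4187 and 1548 against 450 in CDK6 and 276 in CDK2.

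The cyclins outside the classical cycle held 35 sites in 4 genes. CCNI, cyclin I, had 19 sites and 3437 deletions, the 70th highest sum among bound genes, and with 48728 tags the deepest site of any member. Its larger group held 11 sites, 886 to 954 nt before the end, and its leading site had 942 deletions in 38051 tags (2.48%, interval 2.32 to 2.64), 18 nt after the start of an AATAAA. A shorter annotated transcript ends 960 nt before the canonical end, and the 11 sites lay 6 to 74 nt past that end. The last site of that group had 661 deletions in 47425 tags (1.39%), also in a run of 3 T. At the end of the transcript 6 sites had up to 267 deletions in 18509 tags (1.44%, interval 1.28 to 1.62). Most deletions of CCNI thus lay in the upstream group, 2595 against 779 at the end.

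CCNG1, a target of p53, had 5 sites 17 to 46 nt from an end, and its leading deletion, 247 of 14712 tags (1.68%, interval 1.48 to 1.90), fell on the first bases of the AATAAA itself. CCNG2 had 3 sites at an AATAAA, 2877 to 2883 nt before the next annotated end and 993 to 999 nt past another one. They had 66 of 5872 tags (1.12%), 64 of 6339 (1.01%) and 63 of 6909 (0.912%). The intervals of these 3 percentages overlap, and a difference between the sites was not tested. CCNY, which recruits CDKs to the cell membrane, had 7 sites in the 3′UTR in 4 clusters, led by 135 of 4676 tags (2.89%) 621 nt from an end, and an intronic site of 7 tags.

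The cyclins and CDKs of transcription and splicing had a site about as often as the members at large, but held fewer sites. Of 7 such cyclins 5 had a site, 15 sites in all, and of 5 such CDKs 4 had a site, 6 in all. Beside these stand 73.8% of all members and 37.6% of protein-coding genes, and the number of sites of a member moved with coverage. CCNT1, the partner of CDK9 in transcription elongation, had the most, with 7 sites 16 to 76 nt from its end and a leading site of 220 deletions in 7004 tags (3.14%, interval 2.76 to 3.58), and CDK9 itself had none. CCNH, the partner of CDK7, had 1 strong site, 512 deletions in 8466 tags (6.05%, interval 5.56 to 6.58), 7 nt before an AATAAA. CDK7 had 2 sites, led by 167 of 5059 tags (3.30%, interval 2.84 to 3.83) in a run of 5 T, 5 nt before an ATTAAA. CDK7 and its cyclin were thus both bound near an end.

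The remaining pairs of that group had 1 low-class site each at most, at low counts. CCNC had 71 of 2189 tags (3.24%) and its partner CDK8 91 of 1598 tags (5.69%), both at an AATAAA within 36 nt of an end. CCNK had 70 of 5904 tags (1.19%) at an AATAAA 935 nt from an end, and its partner CDK13 had 67 of 3507 tags (1.91%) at an ATTAAA 2478 nt before one, besides an intronic site of 11 tags, all with the deletion. CCNL2 had 119 of 1465 tags (8.12%) 10 nt from an end, plus 2 sites of the high class. Of the other CDKs, CDK17 had 2 low-class sites 321 and 378 nt from an end, with 77 of 2388 tags (3.22%) and 73 of 1125 tags (6.49%), and CDK5 and CDK14 had none.

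Among the brakes of the cycle, the 3 CDK inhibitors of the member list and CDKN3 were bound at their ends. Of 4 further CDK inhibitors outside that list, 2 had a 3′UTR site and 2 had no site. All 21 sites of the 3 CDK inhibitors and CDKN3 lay in 3′UTRs within 100 nt of an annotated end and in the low class. CDKN2C, the inhibitor of CDK4 and CDK6, led with 829 deletions over 6 sites, of which the leading one had 257 in 10117 tags (2.54%, interval 2.25 to 2.87), 9 nt before an ATTAAA. CDKN1B, the inhibitor p27, had 6 sites with 636 deletions. Its 4 sites at the AATAAA had 19441 to 22222 tags and 0.329% to 0.746% with the deletion, and the 2 sites further upstream had 2706 and 3412 tags but 2.11% and 4.13%.

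CDKN1A, the inhibitor p21 and a target of p53, had 2 sites, and its leading deletion, 147 of 6970 tags (2.11%, interval 1.80 to 2.47), fell on the first bases of the AATAAA. CDKN3, a phosphatase that acts on CDKs, had 7 sites with 656 deletions in a canonical 3′UTR of only 143 nt. None of the 7 had either signal within 25 nt, and the leading one had 309 of 12419 tags (2.49%, interval 2.23 to 2.78), 7 nt from an annotated end. Near ends, CDKN3 was thus an exception: of 23 member clusters of the low class within 100 nt of an end, 21 had a signal within 25 nt (91.3%, against 80.8% in the whole list). The other exception was the end of CCND1, whose leading deletion lay too far from its signal.

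RB1, which holds E2F factors in check, had 7 sites and 564 deletions, 6 of them in a group 12 to 111 nt from an end led by 254 of 7537 tags (3.37%, interval 2.99 to 3.80). E2F3 had 3 sites and 610 deletions, and the highest percentage at a leading site among the 12 members with the most deletions. Its first cluster had 418 deletions in 5187 tags (8.06%, interval 7.35 to 8.83), 201 nt from the end and without a signal, and its last site had 146 in 2087 tags (interval 5.98% to 8.17%) in a run of 8 T just after an AATAAA. The intervals of these 2 percentages overlap. E2F1 had 3 sites, led by 115 of 1910 tags (6.02%, interval 5.04 to 7.18), at an AATAAA that stands before the annotated end by over 200 nt, the nearest site being 215 nt away, and it had no site at the annotated end, where the last 50 nt hold no signal.

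Set against the length of the canonical 3′UTR, the order of the members changed in part. CDK1 had 4758 deletions in 3′UTR sites per 1000 nt, the 122nd highest among 6371 protein-coding genes with a 3′UTR site, and CDKN3 came next among members with 4587. CCNI had 3205, CCNB1 2943, CCNH 2926, CDKN2C 2259, CCNA2 2180 and CDK4 1933. The median of the 30 members was 273 and that of all such genes 98.0. CDK6, with its long 3′UTR, had 41.7, and CCND1 513.

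Taking all 173 3′UTR sites, 99 lay within 100 nt before an annotated transcript end (57.2%, interval 49.8 to 64.4), beside 65.8% of the 3′UTR sites of the whole list. The distance had a median of 52 nt with quartiles of 20 and 621 nt in members, and of 38 nt with quartiles of 18 and 346 nt in the whole list. The gap between members and the whole list turned on the sites just past an end. Counted in either direction, a choice made after seeing the data, 116 member sites lay within 100 nt of an end (67.1%, interval 59.7 to 73.6), beside 68.4% of the whole list. The 17 sites gained were the 11 of the upstream group of CCNI, 5 of CCNB1 and 1 of RB1. By both counts 23 of the 42 members had a site near an end. In the whole list 5047 genes had one in either direction, where the annotation holds 20046 protein-coding genes. Of the 57 sites farther away in either direction, CCND1 gave 10, CDK1 9 and CDK6 7. They include all 6 high-class sites of CCND1 and the high-class 3′UTR sites of CDK6, whereas those of CDK1 were all of the low class. Sites of 1 gene share their message, so these shares weigh the genes with many sites most.

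**Figure D4:**
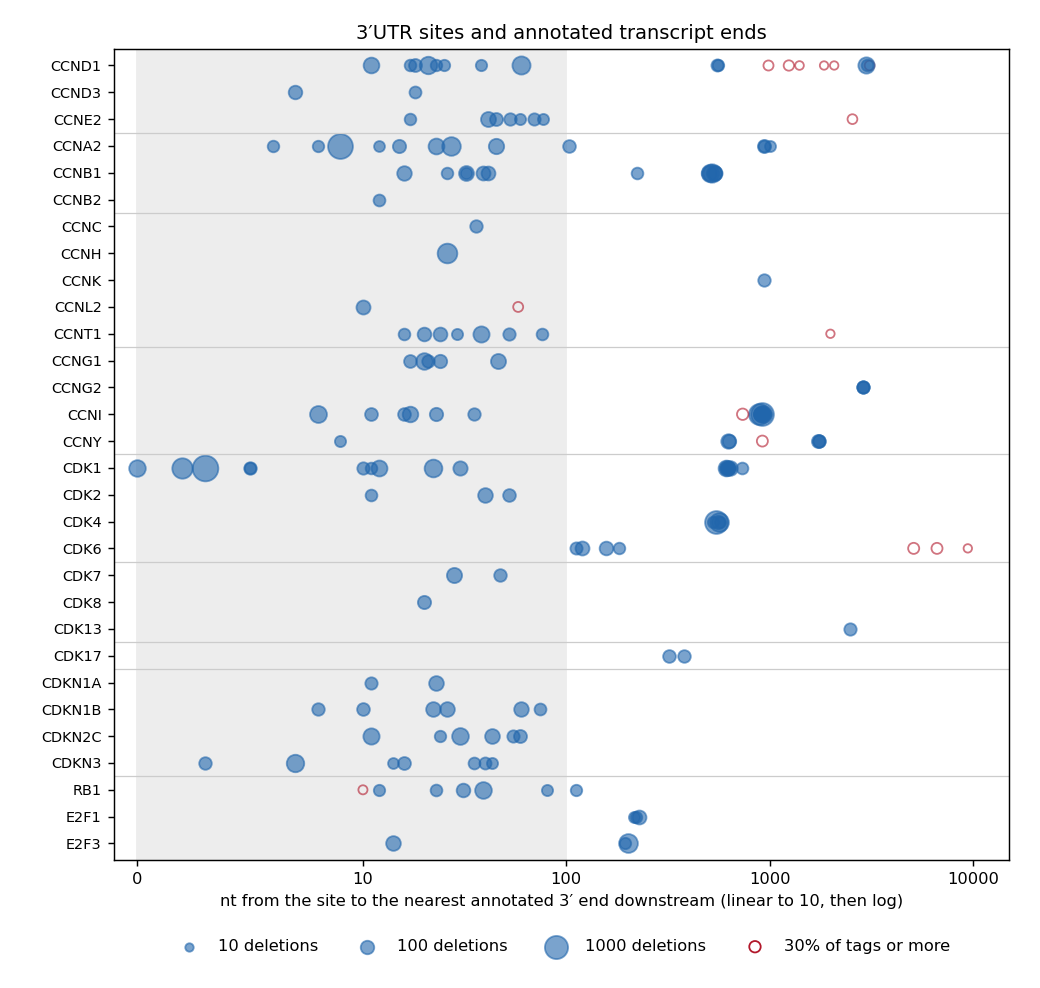
Distance in nt from each 3′UTR site downstream to the next annotated transcript end, with ends upstream of a site left out, linear to 10 nt and logarithmic beyond, for the 30 members with a 3′UTR site; the point area grows with the deletions, and open red points have the deletion in 30% or more of the tags. The grey band marks 100 nt: all sites of the CDK inhibitors and CDKN3 lie inside it, and all sites of CDK4, CDK6, CDK13, CDK17, CCNK, CCNG2 and E2F1 lie outside.

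Sites within 50 nt of each other were joined, which gave 59 clusters in the 3′UTRs of 30 members, and 13 members had more than 1. In CCNE2, CCNL2, CCNT1, CDK6 and RB1 all clusters but 1 were single high-class sites of few tags. The whole list gave 9980 such clusters, with 6372 protein-coding genes that had a 3′UTR site. How many of these genes had more than 1 cluster was not counted. AATAAA or ATTAAA was found within 25 nt of the leading deletion in 33 clusters (55.9%, interval 43.3 to 67.8), beside 60.6% of the 9980 3′UTR clusters of the whole list. AATAAA alone gave 42.4% against 47.3%, and ATTAAA 15.3% against 16.1%, on the strand of the gene, and the hexamers can overlap in a window that holds both. Where there was a signal, the leading deletion lay upstream of it in 17 of 33 clusters (51.5%, against 46.5%), inside it in 3 (9.09%, against 10.9%) and downstream in 13 (39.4%, against 42.6%). The 3 clusters with the deletion inside the signal were those of CCNG1, CDKN1A and CCNY, where it lay 9 nt before the end of a shorter annotated transcript.

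**Figure D5:**
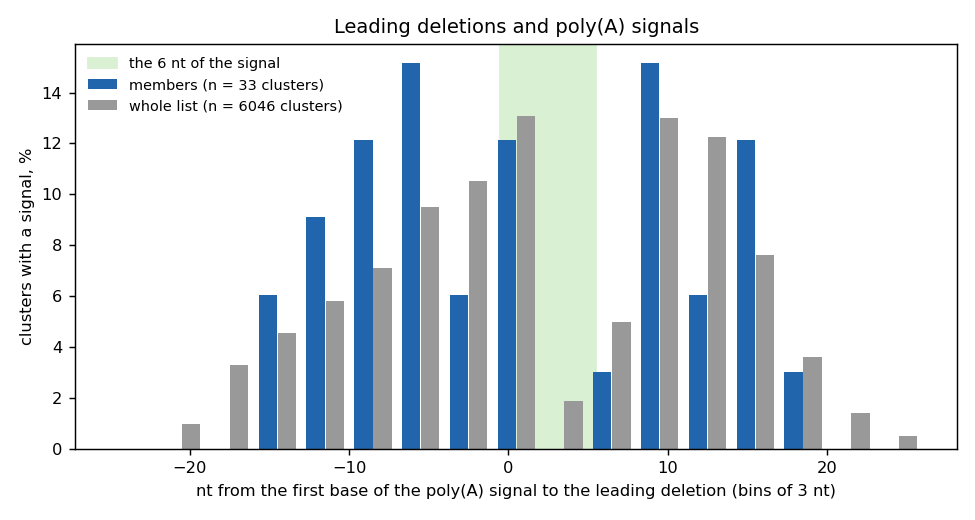
Position of the leading deletion relative to the first base of the nearest poly(A) signal in bins of 3 nt, as the percentage of clusters with a signal, for the 33 member clusters (blue) and the 6046 of the whole list (grey); the green band is the signal. The whole list peaks around the first base of the signal and again downstream of it. The member clusters are few per bin, with 51.5% of them upstream of the signal and 39.4% downstream.

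Away from annotated ends the clusters split by class. Of 21 low-class clusters more than 100 nt before the next end, 10 had a signal (47.6%, against 64.0% of 2270 in the whole list), and without the CCNB1 and CCNI clusters that lay just past an end it was 8 of 19 (42.1%, against 63.9%). Of the 11 without one, 7 had an A-rich stretch within 100 nt downstream (63.6%, against 43.1%), among them those of CDK4, CDK17, E2F3 and the start of the CCND1 3′UTR. Of 13 high-class clusters at such a distance, 2 had a signal (15.4%, against 15.5%). With counts this small the intervals are wide, and no test was made of these differences.

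At the annotated ends themselves, a member whose canonical transcript has an AATAAA in its last 50 nt had a site within 100 nt of that end in 16 of 26 genes (61.5%, beside 23.3% of 12716 protein-coding genes). With ATTAAA alone it was 3 of 7 genes (42.9%, beside 21.2%), and with neither 2 of 9 (22.2%, beside 10.2%). The order was the same in members and in all genes. Among members the 2 genes bound at the canonical end without either hexamer were CDKN3 and CCNL2, and CCNL2 only by a high-class site with 24 of 38 tags (63.2%), whereas its well covered site stands at an AATAAA near the end of a shorter transcript.

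The AUA motif is the element that the study connects with RBMS3. It is searched here as 7 nt, any base but C, A or T, then ATA, A or T, and A, on the strand of the gene. Within 25 nt of the leading deletion, it was found in 24 of the 59 clusters (40.7%, interval 29.1 to 53.4), beside 47.8% of the whole list. In 17 of these the only match was the poly(A) signal itself with 1 base before it, as AATAAA after any base but C fits the motif. A match that holds no AATAAA was present in 7 clusters (11.9%, interval 5.87 to 22.5), beside 14.6%, and these were clusters of CCNC, CCNY (2), CDK1, CDK13, CDK17 and CDKN1A. Of the leading sites printed above, those of CDK4, CCND1, CDKN1B and CDKN2C, both of E2F3 and the ends of CDK1 and CCNI had no match. In the same windows, ATTTA, the core of AU-rich elements, was in 11 clusters (18.6%, against 20.7%), and TGTANATA, the element of Pumilio proteins, in 1 (1.69%, against 3.17%). Windows of other sites of a cluster are not counted here. Some of them held an AUA match without AATAAA (CCNE2, CCNI) or TGTANATA (CCNE2, CCNB1, CDK7).

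The deleted base was T, read as U in the RNA, in 47 of the 59 clusters (79.7%, interval 67.7 to 88.0), beside 74.4% of the whole list. It was A in 6, C in 3 and G in 3. The deletion lay in a run of 3 or more T in 38 clusters (64.4%, against 61.1%) and in a run of exactly 3 T in 20 (33.9%, against 36.1%). The strongest sites of CDK1, CCNA2, CCNI, CCND1, CCNH and RB1 were each in a run of exactly 3 T. Other members differed: the run was of 2 T in CCNB1, 6 T in CDK4 and 4 T in CDKN2C and CDKN3.

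Of 55 other cell cycle genes, listed by name for their roles, 35 had a site and 30 a 3′UTR site, beside the same 37.6% and 31.8% of protein-coding genes. AURKA, a kinase of the mitotic spindle, led them with 1870 deletions in 8 sites, followed by the repressor E2F7 with 1269 in 9 and the CDK subunit CKS2 with 1001 in 6. Among the mitotic kinases and checkpoint genes 8 of 9 were bound, and among 16 further cyclins and CDKs 5 were. As a check of the cell line, all 5 mesenchymal markers (VIM, CD44, CAV1, AXL and ZEB1) had 3′UTR sites, ESR1, PGR and CDH1 had none, and GATA3 and EPCAM had 1 each with 47 and 20 deletions. Such a site shows only that the message was captured.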

How the data were processed

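RBMS3 CLIP-seq sites of MDA-MB-231 cells were taken from 1 deposited list. The authors appended molecular identifiers to the reads, ran the CLIP Tool Kit (alignment to hg38, unique tags, pooling of 2 replicates) and kept deletion sites at a false discovery rate of 10% and a fold of 10 whose meaning is not given. Per site, the list as deposited holds raw counts of tags with the deletion, and a name field with the tags and deletions as text. They are not normalized. Library totals and per-replicate counts were not analysed here, so depth is given per site.

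Each deletion was taken as the centre of its 21-nt interval and placed by strand on all transcripts of GENCODE 44, in the order 3′UTR, 5′UTR, coding sequence, noncoding exon and intron. Transcript ends were those of transcripts with an annotated 3′UTR, and distances ran downstream from the site to the next end. Sites within 50 nt were joined in clusters, for each of which the site with most deletions stood, and windows had 25 nt on each side. Sequences were read from hg38. An A-rich stretch was 10 nt with at least 8 A, starting within 100 nt downstream, a measure chosen after the data were seen. With 1 group and 1 pooled list no test was made: shares have 95% Wilson intervals, and the same measure over the whole list or all protein-coding genes stands beside them.

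The members and lists were chosen with earlier results of these data known. Values are given in full for the 12 members with the most deletions and the leading member of each role, every unbound member is named, and of the other cell cycle genes the 3 with the most deletions. Alternatives were other site filters, the canonical transcript, any overlap of the interval, no strand, other distances, windows, cluster rules and motifs. The functions were tested on simulated data. The software was matplotlib 3.10.9, numpy 2.4.6, pysam 0.24.0, Python 3.11.15, samtools 1.23.1 and scipy 1.17.1.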

Additional observations from a re-analysis of the deposited data

How the results depend on the processing

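No paired analysis was possible because there was 1 group and the authors pooled both replicates in 1 list; for the same reason neither replicate could be left out. Of 69 alternative settings, 45 left the result inside its interval or within 1.5 times its count, and 24 moved it. Keeping only sites with the deletion in at least 10% of tags left 29 sites, 14 members with a site and 9 with a 3′UTR site, a 3′UTR share of 62.1%, 16.7% of 3′UTR sites near an end, 16.7% of clusters with a poly(A) signal, 5.56% with the AUA motif, the same 5.56% with a match without AATAAA, 61.1% with a deleted T and a median percentage of 100%. Under 30% of tags, the 3′UTR share was 100%, the share of clusters with a signal 70.5% and with the AUA motif 54.5%. With at least 20 deletions per site the 3′UTR share was 99.4%. Within 50 nt of an end lay 49.1% of sites. With every site in place of 1 per cluster, 5.78% had an AUA match without AATAAA and 67.1% a deleted T. With 10 nt on each side of the deletion, 25.4% of clusters had a signal, 13.6% the AUA motif and 5.08% a match without AATAAA. The canonical signal alone gave 42.4%, the shorter AUA core 61.0%, and 1 site per cluster a median percentage of 5.59%. Of 2 alternatives chosen after seeing the data, ends of all transcripts gave 58.4% of sites near an end and ends in either direction 67.1%. The cause of these shifts was not tested, beyond the filters' own removal of sites. What depth limits is the absence of sites in thinly covered messages and any comparison between replicates.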
